A study of Homo sapiens with 18 samples.

Results

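Accessible chromatin was examined around 3 genes, F3, VEGFA and THBS1, in T47D, an established cell line from a human breast carcinoma with progesterone receptor. All regions of the deposited region list that overlap 3 windows of the hg19 build were taken: 94.92 to 95.1 Mb of chromosome 1 for F3, 43.68 to 43.95 Mb of chromosome 6 for VEGFA and 39.8 to 39.95 Mb of chromosome 15 for THBS1. These windows hold 14, 31 and 10 regions, 55 of 132604 in all, and all 55 passed the filter on low counts. The assay, Omni-ATAC-seq, uses a transposase (Tn5) that places adapters where chromatin is open, so that reads pile up there. There were 6 groups of 3 libraries: DMSO vehicle, 0.1 nM R5020 and 10 nM R5020, each for 6 h and for 18 h. R5020 (promegestone) is a synthetic progestin. All groups, vehicle included, had been starved of serum in medium without phenol red before treatment, and all come from 1 cell line. The labels do not say whether a group's libraries are separate cultures, so the spread behind the p-values may be technical only. The labelled cell line was not checked against marker loci here.

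F3 encodes tissue factor, the membrane receptor for coagulation factor VII that starts the extrinsic clotting pathway. VEGFA encodes the main secreted ligand of the endothelial VEGF receptors and drives the growth of new vessels. THBS1 encodes thrombospondin, a secreted matrix glycoprotein that binds CD36 and CD47 and is best known for restraining vessel growth. Progestins are known to raise the products of all these genes in breast cancer lines with progesterone receptor, a ligand-activated transcription factor that mostly binds enhancers away from gene starts. In the RefSeq order of protein-coding genes, F3 lies between ABCD3 and SLC44A3, VEGFA between MRPS18A and MRPL14, and THBS1 between RASGRP1 and FSIP1. A window can therefore hold regions that serve a neighbouring gene. The annotation used here is of another build (GRCh38.p14), so regions are placed by their hg19 coordinates and by their distance from the strongest region of their window, and no region was assigned to a gene.

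For 2 of the 3 genes, F3 and THBS1, RefSeq sequences of GRCh38.p14 gave the bases just before the gene start. They are shown because the strongest regions, described further on, would be read against them. The sequences are 250 bases long and end at the base before the start, 5′ to 3′ on the gene's strand. F3 reads from the minus strand (chr1:94541760-94542009) and THBS1 from the plus strand (chr15:39580829-39581078). Capitals mark matches, on either strand, to the AP-1 site TGANTCA, the GC box GGGCGG bound by SP1-type factors, and TATAAA, with no overlap between different motifs.
F3: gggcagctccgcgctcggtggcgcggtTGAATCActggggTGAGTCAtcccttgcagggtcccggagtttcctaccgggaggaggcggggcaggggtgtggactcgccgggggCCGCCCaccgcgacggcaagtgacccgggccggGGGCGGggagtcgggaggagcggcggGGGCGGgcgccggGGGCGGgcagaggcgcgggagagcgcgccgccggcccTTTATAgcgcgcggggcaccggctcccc
THBS1: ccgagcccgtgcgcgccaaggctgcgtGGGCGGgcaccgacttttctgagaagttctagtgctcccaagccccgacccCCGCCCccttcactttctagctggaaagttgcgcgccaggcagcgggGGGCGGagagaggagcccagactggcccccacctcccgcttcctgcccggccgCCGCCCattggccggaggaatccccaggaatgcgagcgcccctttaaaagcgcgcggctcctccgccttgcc
The F3 sequence, 78.0% G and C, held 2 AP-1 matches from 223 to 217 and from 210 to 204 bases before the start, 4 GC boxes and 1 TATAAA match on the minus strand from 28 to 23 bases before it. The THBS1 sequence, 69.6% G and C, held 4 GC boxes and no match to TGANTCA or TATAAA. Among 35116 RefSeq sequences of the same length and place, 6.57% held TGANTCA, 42.6% GGGCGG and 10.7% TATAAA. Neither sequence held the palindromic receptor element ACANNNTGT, found in 4.61% of them, its single-arm form TGTNCT (35.5%) or the hypoxia core ACGTG (18.5%). A match is a description of these letters and not evidence of binding.

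Libraries held 8756311 to 39984217 counts in regions. The 5000 strongest regions of the whole list took 39.1% ± 2.39 of the counts with vehicle, 38.1% ± 1.37 with 0.1 nM and 34.1% ± 0.559 with 10 nM at 6 h (SD, n = 3). At 18 h they took 38.2% ± 2.02, 36.4% ± 3.29 and 33.6% ± 3.45 in the same order. Deviation from the group mean across regions was largest in replicate 1 of 10 nM at 18 h (SD of log2 CPM 0.660) and replicate 1 of vehicle at 6 h (0.543), against a median of 0.411. The next library stood at 0.531, so the latter stood apart by little. Levels below are CPM, the usual depth-scaled read counts, here on TMM-scaled library totals.

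With 10 nM R5020 for 6 h, 10 of the 55 regions were more accessible than with vehicle and 2 were less accessible (edgeR quasi-likelihood test, adjusted p under 0.05). These shares, 18.2% and 3.64%, compare with 16.7% and 8.42% of all 132304 tested regions, so the windows together were not set apart by their number of gains. After 18 h, 8 regions were higher and 2 were lower, 14.5% and 3.64%, beside 12.8% and 7.56% of all regions. The gains lay in the F3 window (3 at 6 h, 2 at 18 h), the VEGFA window (7 and 4) and the THBS1 window (0 and 2). Of these regions, 6 rose at both times. The share of all regions called higher at both times was not counted, so nothing is read from that number. The median log2 fold change of the 55 regions was 0.10 at 6 h and 0.08 at 18 h, against -0.05 and 0.01 over all regions. Without the 2 libraries of largest deviation, 9 regions were higher and 2 lower at 6 h, and 6 were higher and 4 lower at 18 h. Over all regions the counts in that setting were 18858 higher and 7735 lower at 6 h and 14780 and 16120 at 18 h, where the full set of libraries gave 16989 and 10002, so over the whole list losses came to outnumber gains at 18 h. The calls against vehicle lost without them were at +107.7 kb of the VEGFA window at 6 h (edgeR adjusted p = 0.058) and, at 18 h, at +65.3 kb of the F3 window (0.0822), +42.6 and +140.1 kb of the VEGFA window (0.0501 and 0.0892), and -50.0 and +59.9 kb of the THBS1 window (0.0952 and 0.0852). Other calls were gained without these libraries. Among them was a loss with 10 nM at 18 h in the strongest region of the F3 window (log2 fold change -0.95, edgeR adjusted p = 0.0331). A fit of the 2 groups alone called 4 regions higher and 0 lower at 18 h, and 14677 and 6259 over all regions.

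**Figure D1:**
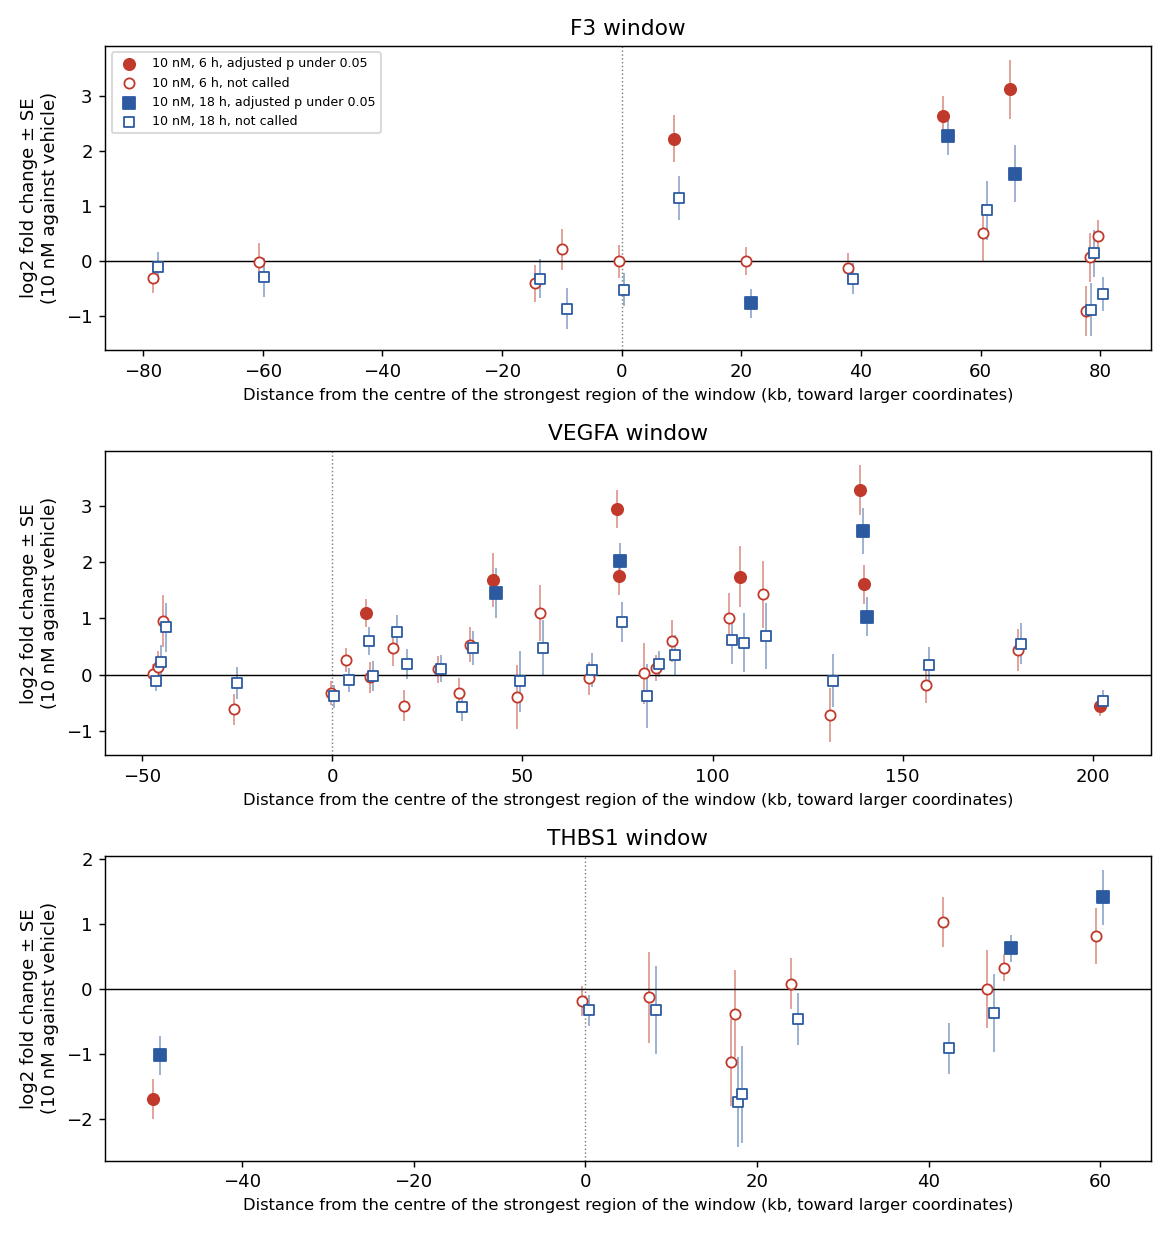
Log2 fold change of 10 nM R5020 against vehicle for every region of the 3 windows, with its standard error, plotted against the distance in kb from the centre of the strongest region of the window (dotted line); circles are 6 h, squares 18 h, and filled symbols passed an adjusted p under 0.05. All 12 regions raised at either time lie to the right of the dotted line, from +9.15 to +140.1 kb.

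All 12 regions that rose at either time lay on the side of larger coordinates from the strongest region of their window. That side also held most regions, 43 against 9, and the 2 sides were not compared by a test. F3 is read from the minus strand, so that side is upstream of F3 if the strongest region spans the gene start. For THBS1, read from the plus strand, it is then downstream. The gene starts were not checked against an hg19 annotation. For VEGFA, whose window held 7 of the 12, no sequence was available and no side is named. The 12 regions had a median level of 1.24 CPM in vehicle cells at 6 h, and 9 of them stood under 2 CPM. The 40 regions that did not pass the test with either dose had a median of 2.01 CPM, with 20 under 2 CPM. The same vehicle libraries were the reference of the 6 h calls. A low vehicle level is thus partly built into the choice of the 12, and nothing is read from this difference. The 12 were 167 to 956 bp wide.

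Summed over a window, accessibility moved less than in single regions. The 14 F3 regions together held 47.5 ± 3.45 CPM with vehicle, 55.8 ± 7.03 CPM with 0.1 nM and 65.3 ± 7.50 CPM with 10 nM at 6 h (SD, n = 3), and the 10 nM libraries lay above all vehicle libraries. At 18 h the F3 sums were 46.2 ± 1.31, 51.8 ± 13.9 and 44.2 ± 9.80 CPM in the same order, and the groups overlapped. The VEGFA sums were 193 ± 16.6, 210 ± 13.4 and 223 ± 6.17 CPM at 6 h and 208 ± 17.4, 236 ± 25.8 and 224 ± 22.2 CPM at 18 h. For THBS1 they were 62.4 ± 10.2, 69.5 ± 7.78 and 57.4 ± 0.992 CPM at 6 h and 54.1 ± 6.47, 54.3 ± 9.43 and 45.0 ± 6.84 CPM at 18 h. These sums are descriptions. Libraries of neighbouring doses overlapped in every window at both times, with 1 exception. In the THBS1 window at 6 h the 0.1 nM libraries (61.3 to 76.8 CPM) lay above those of 10 nM (56.3 to 58.3 CPM).

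The strongest region of each window did not pass the test with either dose at either time. In the F3 window it ran from 95006862 to 95007873 on chromosome 1 (18.3 CPM over all libraries, more than 89.9% of tested regions), in the VEGFA window from 43737333 to 43739784 on chromosome 6 (66.6 CPM, 98.4%) and in the THBS1 window from 39872067 to 39874253 on chromosome 15 (41.1 CPM, 96.0%). By general knowledge of the hg19 map, which was not checked against an annotation here, these regions span the gene starts. Per kb of width they held 18.1, 27.2 and 18.8 CPM.

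The F3 region read 21.5, 21.0 and 15.4 CPM with vehicle, 22.5, 14.6 and 22.0 CPM with 0.1 nM and 17.8, 20.0 and 19.7 CPM with 10 nM at 6 h. All 3 groups overlapped, and the log2 fold change of 10 nM against vehicle was -0.01 (95% interval -0.64 to 0.62). At 18 h the values were 22.4, 20.5 and 15.9 CPM with vehicle, 27.6, 16.9 and 10.9 CPM with 0.1 nM, and 20.0, 11.6 and 8.58 CPM with 10 nM. The lowest libraries of the treated groups fell below all vehicle libraries while the highest did not, and the log2 fold change of 10 nM was -0.53 (95% interval -1.16 to 0.10, edgeR adjusted p = 0.243). Without replicate 1 of 10 nM at 18 h it was -0.96 and passed the test (edgeR adjusted p = 0.0314).

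The VEGFA region read 82.3, 77.0 and 70.3 CPM with vehicle at 6 h and 62.1, 60.6 and 61.4 CPM with 10 nM. The 10 nM libraries lay below all vehicle libraries, but the log2 fold change of -0.32 (95% interval -0.76 to 0.12) did not pass the test (edgeR adjusted p = 0.293). At 18 h vehicle stood at 73.4 ± 8.86 CPM and 10 nM at 56.3 ± 11.2 CPM, with overlap (log2 fold change -0.38, SE 0.21). With 0.1 nM the region stood at 68.7 ± 6.69 CPM at 6 h and 63.1 ± 16.2 CPM at 18 h.

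The THBS1 region read 55.2, 50.3 and 36.9 CPM with vehicle and 39.4, 43.7 and 41.4 CPM with 10 nM at 6 h, and the groups overlapped (log2 fold change -0.19, 95% interval -0.68 to 0.29). At 18 h it read 43.2, 40.1 and 33.2 CPM with vehicle and 39.1, 30.6 and 22.3 CPM with 10 nM, again with overlap (log2 fold change -0.34, 95% interval -0.82 to 0.15).

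The levels of these regions were set beside the percentage of a library's counts that the 5000 strongest regions took. The VEGFA region is itself among those 5000, so its level and the share are not independent. In the 18 h groups and in vehicle at 6 h the library with the highest share of its group also had the highest F3, VEGFA and THBS1 level, and the library with the lowest share the lowest. The shares at 18 h were 40.0%, 38.5% and 36.0% with vehicle, 39.6%, 36.6% and 33.0% with 0.1 nM, and 37.4%, 32.7% and 30.7% with 10 nM. Treated groups at 6 h did not keep this order: in those given 10 nM, replicate 1 had the highest share (34.6%, against 34.3% and 33.5%) and the lowest F3 and THBS1 levels. At 0.1 nM the highest VEGFA level was not in the library with the highest share. When this share entered the fit as a covariate, the log2 fold change of 10 nM at 6 h turned to 0.83 for F3 (edgeR adjusted p = 0.000635) and 0.38 for THBS1 (edgeR adjusted p = 0.0212), and was 0.11 for VEGFA (edgeR adjusted p = 0.464). At 18 h the values with the covariate were 0.14, 0.14 and -0.01. The share differed between vehicle and 10 nM, so the fit cannot fully tell the share and the dose apart, and no direction is given for the strongest regions.

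**Figure D2:**
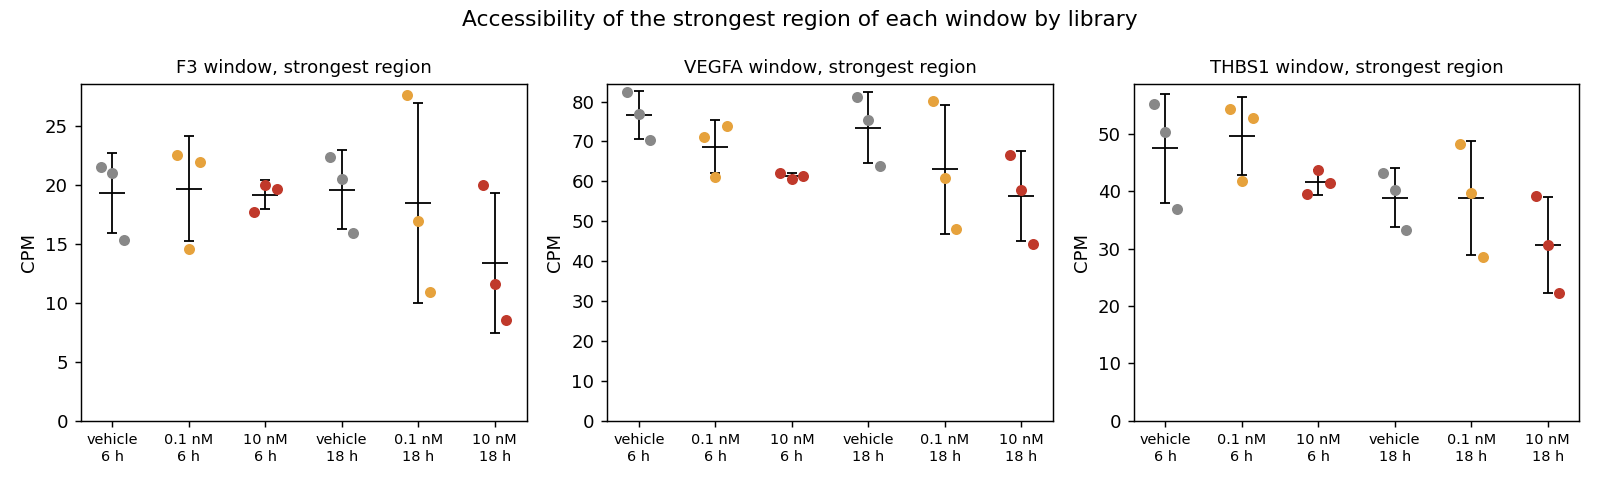
Accessibility in CPM of the strongest region of each window, 1 point per library, with the mean and SD of the 3 libraries of each group. Vehicle and 10 nM overlap in the F3 and THBS1 panels at 6 h and in all panels at 18 h; in the VEGFA panel at 6 h the 10 nM libraries, at 60.6 to 62.1 CPM, lie below the vehicle libraries.

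In the F3 window 3 regions opened with 10 nM, at +9.15, +54.2 and +65.3 kb. The largest change was on chromosome 1 from 95072350 to 95072902 (+65.3 kb). It read 0.315, 0.516 and 1.46 CPM with vehicle, 1.45, 0.895 and 0.917 CPM with 0.1 nM and 5.25, 6.81 and 7.76 CPM with 10 nM at 6 h. Every 10 nM library lay above the other groups, while 0.1 nM overlapped vehicle, and the rise was 8.76-fold (log2 fold change 3.13, SE 0.54, edgeR adjusted p = 0.000193). This value rests on 3 to 18 raw counts per vehicle library and 112 to 265 per 10 nM library. At 18 h the values were 0.431, 0.566 and 1.83 CPM with vehicle and 3.42, 2.13 and 2.61 CPM with 10 nM, a 3.01-fold rise (edgeR adjusted p = 0.0331). This late call was lost without replicate 1 or 3 of 10 nM or replicate 1 or 2 of vehicle, with adjusted p values up to 0.174.

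The region from 95061182 to 95061855 (+54.2 kb) held its gain. It read 1.26, 1.22 and 2.10 CPM with vehicle, 2.42, 3.04 and 2.31 CPM with 0.1 nM and 9.09, 7.84 and 11.4 CPM with 10 nM at 6 h. The 3 groups did not overlap, and both the rise over vehicle (6.26-fold, edgeR adjusted p = 1.7e-05) and the difference between the doses (3.67-fold, edgeR adjusted p = 0.000353) passed the test. At 18 h it read 1.42, 1.18 and 2.06 CPM with vehicle, 5.41, 1.52 and 2.92 CPM with 0.1 nM and 8.41, 6.05 and 8.11 CPM with 10 nM. The 10 nM group again lay above the others, 4.87-fold over vehicle (edgeR adjusted p = 8.84e-05), while 0.1 nM was spread across the gap. The late difference between the doses, 2.23-fold, was lost without replicate 2 or 3 of 0.1 nM or replicate 1 or 3 of 10 nM, with edgeR adjusted p values up to 0.15.

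Nearest to the strongest region was the gain from 95016278 to 95016762 (+9.15 kb), where the low dose also stood above vehicle. It read 0.945, 1.18 and 1.21 CPM with vehicle, 3.63, 2.68 and 3.92 CPM with 0.1 nM and 5.06, 4.19 and 6.61 CPM with 10 nM at 6 h. The groups were ordered by dose without overlap. The rise with 10 nM was 4.69-fold (edgeR adjusted p = 0.000616). That with 0.1 nM was 3.04-fold and missed the threshold over all regions (edgeR adjusted p = 0.085), though it passed with DESeq2's Wald test (adjusted p = 0.0352) and in a fit of the 2 groups alone (edgeR adjusted p = 0.0302). The doses differed by a log2 value of 0.63 (SE 0.38, edgeR adjusted p = 0.294). At 18 h, 10 nM read 5.81, 2.13 and 2.89 CPM against 2.03, 2.11 and 0.884 CPM with vehicle, and the 2.21-fold difference missed the threshold (edgeR adjusted p = 0.0518).

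A loss in this window appeared at 18 h, from 95028358 to 95028793 (+21.2 kb). It read 3.58, 3.40 and 4.42 CPM with vehicle, 6.59, 5.18 and 5.64 CPM with 0.1 nM and 2.50, 1.72 and 2.33 CPM with 10 nM, so that the low dose lay above vehicle and the high dose below it, without overlap. The fall with 10 nM, a log2 fold change of -0.78 (SE 0.26, edgeR adjusted p = 0.0393), was lost without replicate 2 or 3 of 10 nM or any 1 vehicle library (up to 0.154), and DESeq2's Wald test gave an adjusted p of 0.054. The difference between the doses was 2.63-fold (edgeR adjusted p = 0.00123) and was called without each library in turn. At 6 h the region stood at 4.31 ± 1.20 CPM with vehicle, 6.37 ± 1.04 CPM with 0.1 nM and 4.27 ± 1.05 CPM with 10 nM, and no difference passed the test. The second strongest region of the window, from 95087043 to 95087768, stood at 5.58 ± 1.42 CPM with vehicle and 7.58 ± 0.882 CPM with 10 nM at 6 h, and at 4.33 ± 1.03 and 2.79 ± 0.933 CPM at 18 h, without a call.

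In the VEGFA window 7 of 31 regions rose at 6 h, from +9.21 to +140.1 kb, or 22.6%, beside 21.4% of the F3 window and 16.7% of all regions. The largest was on chromosome 6 from 43877579 to 43877795 (+139.1 kb). It read 0.63, 0.552 and 0.81 CPM with vehicle, 0.354, 0.597 and 0.623 CPM with 0.1 nM and 5.11, 5.83 and 8.05 CPM with 10 nM at 6 h. The low dose overlapped vehicle while every 10 nM library stood far above both, 9.70-fold over vehicle (edgeR adjusted p = 1.59e-05) and 12.2-fold over 0.1 nM (edgeR adjusted p = 6.55e-06). Levels as low as those with vehicle and 0.1 nM rest on few counts, which limits how exactly these folds are known. At 18 h it read 0.517, 1.34 and 1.65 CPM with vehicle, 0.501, 0.829 and 1.75 CPM with 0.1 nM and 8.17, 4.58 and 7.27 CPM with 10 nM. The same pattern held, 5.83-fold over vehicle (edgeR adjusted p = 0.000129) and 7.11-fold over 0.1 nM (edgeR adjusted p = 0.000188).

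A stronger region lay 670 bp further on, from 43878465 to 43878902 (+140.1 kb), and its doses were less separate. This region, the one from 43747552 to 43747988 and the VEGFA region from 43757539 and the THBS1 region from 39897220, both compared between the doses, and the regions from 43692785 (VEGFA) and 39914948 (THBS1) were chosen after their values were seen; the others follow the rule for named regions. At 6 h it read 2.84, 7.62 and 3.08 CPM with vehicle, 6.68, 10.1 and 4.44 CPM with 0.1 nM and 13.4, 15.7 and 13.9 CPM with 10 nM. The rise with 10 nM was 3.04-fold (edgeR adjusted p = 0.00187). At 18 h the groups stood at 6.39 ± 1.99, 11.1 ± 3.35 and 13.0 ± 2.87 CPM, and the 2.04-fold rise with 10 nM (edgeR adjusted p = 0.0374) was lost without replicate 1 or 2 of 10 nM or replicate 1 or 3 of vehicle (up to 0.139).

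A second pair of gains lay near +75 kb, 256 bp apart. The region from 43813438 to 43814011 (+75.2 kb) read 1.37, 1.40 and 2.35 CPM with vehicle, 1.86, 1.37 and 1.69 CPM with 0.1 nM and 13.0, 13.1 and 12.9 CPM with 10 nM at 6 h. Replicates of 10 nM differed by little, and the rise was 7.69-fold over vehicle (edgeR adjusted p = 1.95e-06) and 7.83-fold over 0.1 nM (edgeR adjusted p = 2e-06). At 18 h it read 1.47, 1.49 and 2.59 CPM with vehicle, 1.58, 2.28 and 4.37 CPM with 0.1 nM and 9.17, 7.12 and 5.78 CPM with 10 nM, a 4.05-fold rise over vehicle (edgeR adjusted p = 0.000121). Its neighbour from 43814267 to 43814543 (+75.8 kb) went from 1.10 ± 0.165 CPM to 3.83 ± 0.604 CPM at 6 h (3.39-fold, edgeR adjusted p = 0.00077) and stood at 1.19 ± 0.475 and 2.30 ± 0.738 CPM at 18 h, where the difference missed the threshold (edgeR adjusted p = 0.0656).

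The remaining VEGFA gains were smaller. The narrow region from 43781029 to 43781196 (+42.6 kb) stood at 0.462 ± 0.147 CPM with vehicle and 1.43 ± 0.0671 CPM with 10 nM at 6 h, 3.22-fold (edgeR adjusted p = 0.0122), and at 0.667 ± 0.347 and 1.82 ± 0.207 CPM at 18 h (edgeR adjusted p = 0.0234). These calls rest on 5 to 17 counts per vehicle library and 17 to 73 per 10 nM library. The 6 h call was lost without replicate 2 of vehicle (edgeR adjusted p = 0.0835), and the 18 h call without replicate 2 of 10 nM or replicate 1 or 2 of vehicle (up to 0.119). The region from 43846111 to 43846475 (+107.7 kb) went from 1.37 ± 0.644 to 4.68 ± 0.805 CPM at 6 h (edgeR adjusted p = 0.0205). That call was lost without replicate 1 of 10 nM, without replicate 1 or 2 of vehicle (up to 0.0904), and when the share taken by the strongest regions entered the fit, where its log2 fold change went from 1.74 to 0.54. Closest to the strongest region, from 43747552 to 43747988 (+9.21 kb), accessibility went from 5.48 ± 0.399 to 11.8 ± 0.372 CPM at 6 h, 2.13-fold (edgeR adjusted p = 0.00259). At 18 h the 10 nM libraries there read 12.1, 12.5 and 4.85 CPM, so that replicate 3 fell below all vehicle libraries and the others stood well above, and no call was made.

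**Figure D3:**
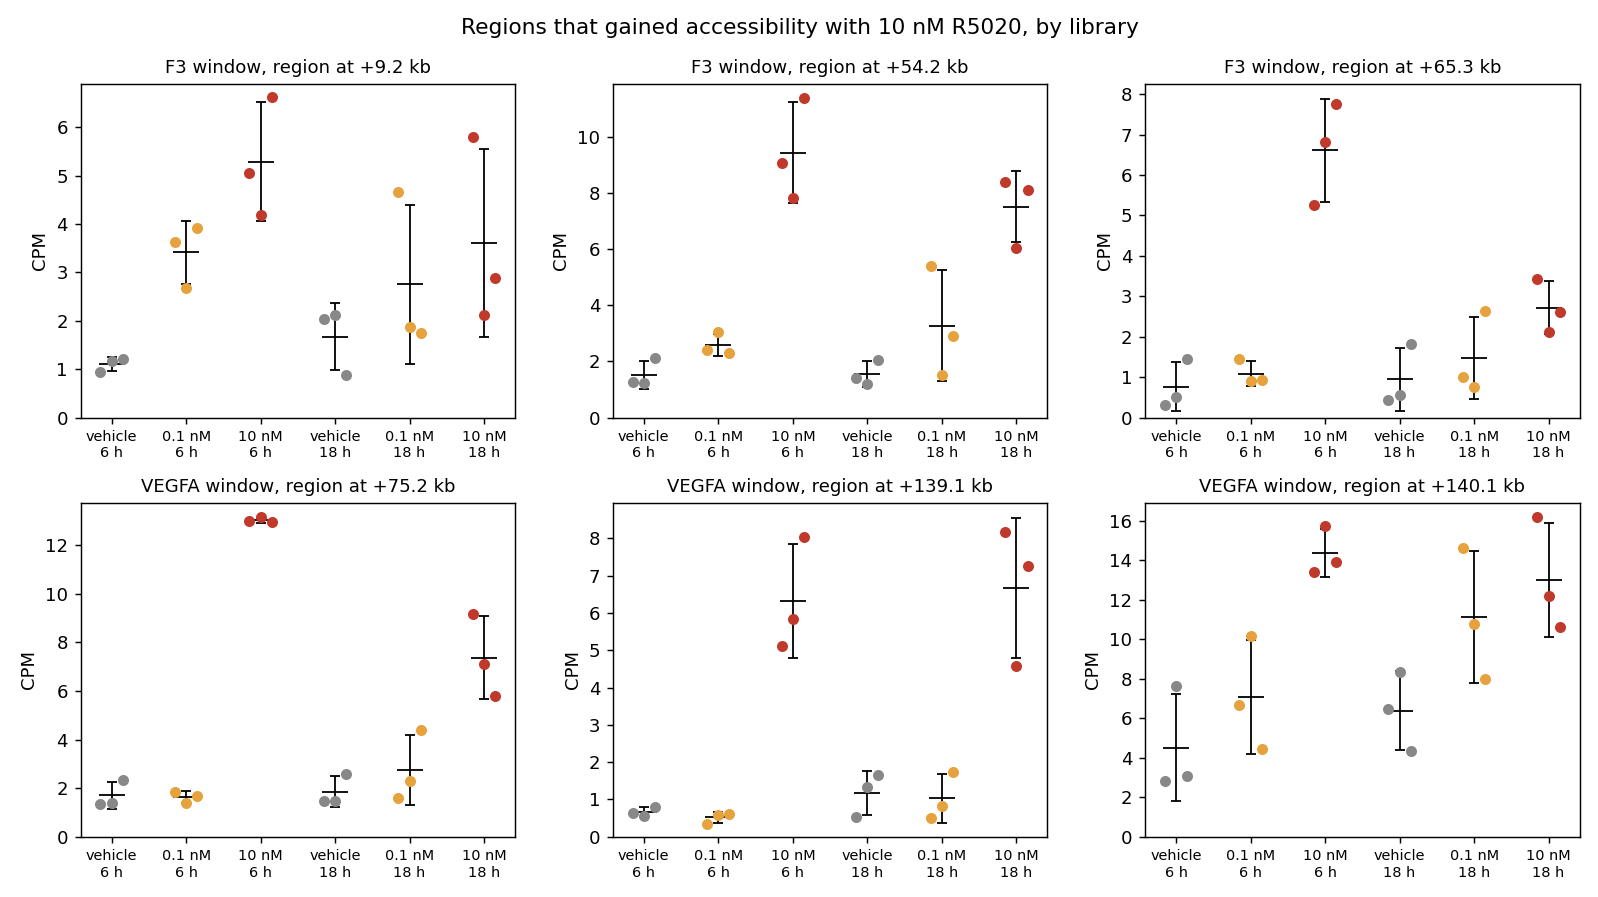
Accessibility in CPM of 6 regions that rose with 10 nM R5020 in the F3 and VEGFA windows, 1 point per library, with the mean and SD of each group of 3. In every panel the 10 nM libraries lie above all vehicle libraries of the same time, by least at +9.15 kb in the F3 window at 18 h (2.13 against 2.11 CPM).

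Far from the strongest region, from 43940389 to 43941284 (+202.3 kb), the VEGFA window held a region that was lower with 10 nM. It read 9.14, 11.0 and 10.4 CPM with vehicle and 6.32, 6.10 and 8.43 CPM with 10 nM at 6 h, a log2 fold change of -0.55 (SE 0.19, edgeR adjusted p = 0.0372). This call was lost without replicate 1 or 2 of 10 nM or any 1 vehicle library (up to 0.208). The size factors of DESeq2, no filter and only the groups compared also lost the call (edgeR adjusted p = 0.055, 0.0644 and 0.0611). So did the share of the strongest regions as a covariate (edgeR adjusted p = 0.0702). At 18 h it read 11.9, 12.4 and 9.43 CPM with vehicle, 16.6, 14.3 and 12.5 CPM with 0.1 nM and 7.49, 9.32 and 7.83 CPM with 10 nM. The doses thus lay on opposite sides of vehicle without overlap, and the 1.78-fold difference between them passed the test (edgeR adjusted p = 0.00622; 0.0898 in a fit of these groups alone), while neither dose differed from vehicle by it. The second strongest region of the window, from 43766417 to 43767074 (+28.2 kb), was the most accessible per kb (48.0 CPM per kb) and stood at 26.2 ± 6.66 CPM with vehicle and 28.1 ± 4.23 CPM with 10 nM at 6 h (log2 fold change 0.10, SE 0.24).

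In the THBS1 window 0 of 10 regions rose and 1 fell (10%) with 10 nM at 6 h, beside 16.7% and 8.42% of all regions. Shares of 10 regions are coarse, so nothing is read from these counts. The windows were not compared with each other by a test. On chromosome 15 from 39822850 to 39823507 (-50.0 kb), the only region before the strongest one, accessibility read 3.36, 3.24 and 3.32 CPM with vehicle, 1.86, 3.04 and 1.94 CPM with 0.1 nM and 0.75, 1.42 and 0.878 CPM with 10 nM at 6 h. The 3 groups were ordered by dose without overlap. The fall with 10 nM was a log2 fold change of -1.70 (SE 0.31, edgeR adjusted p = 0.000361), and the doses differed by -1.15 (SE 0.31, edgeR adjusted p = 0.0101); the fall with 0.1 nM, -0.55, did not pass the test. At 18 h it read 3.15, 4.06 and 3.89 CPM with vehicle, 2.65, 2.56 and 3.69 CPM with 0.1 nM and 1.31, 1.96 and 2.33 CPM with 10 nM (log2 fold change -1.03, SE 0.30, edgeR adjusted p = 0.0193). The 6 h difference between the doses was lost without replicate 2 of 0.1 nM or replicate 1 or 3 of 10 nM (up to 0.0643). The 18 h call was lost without replicate 1 of 10 nM or replicate 2 of vehicle (up to 0.0872).

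Late gains in this window were modest. The region from 39932974 to 39933165 (+59.9 kb) read 1.08, 1.08 and 0.295 CPM with vehicle and 2.81, 1.64 and 2.05 CPM with 10 nM at 18 h, 2.64-fold (edgeR adjusted p = 0.0215). The region from 39921861 to 39922817 (+49.2 kb), the second strongest of the window, read 4.74, 3.76 and 3.89 CPM with vehicle and 5.65, 6.05 and 7.55 CPM with 10 nM, 1.54-fold (edgeR adjusted p = 0.0393). The groups did not overlap in either region. The former call was lost without replicate 1 of 10 nM or replicate 3 of vehicle (up to 0.0868), and the latter without replicate 3 of 10 nM or replicate 2 or 3 of vehicle (up to 0.127).

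Weak regions near +17 kb of THBS1, 111 bp apart, were called lower with 10 nM than with 0.1 nM, each at a single time. Neither was called against vehicle. The one from 39890302 to 39890717 read 1.33, 1.13 and 1.28 CPM with 0.1 nM, 0.0468, 0.356 and 0.351 CPM with 10 nM and 0.84, 0.331 and 0.648 CPM with vehicle at 6 h. The low dose lay above all vehicle libraries, and the difference between the doses was -2.25 on the log2 scale (SE 0.62, edgeR adjusted p = 0.0125). The one from 39890828 to 39891174 read 1.11, 0.553 and 0.972 CPM with 0.1 nM and 0.131, 0.327 and 0 CPM with 10 nM at 18 h, a log2 difference of -2.51 (SE 0.73, edgeR adjusted p = 0.0308). Raw counts with 10 nM were 1 to 12 in the former and 0 to 5 in the latter, so these values are near the limit of what the depth can show. The former call was lost without replicate 1 of 10 nM (0.0679), and the latter without replicate 1 of 0.1 nM or replicate 1 or 3 of 10 nM (up to 0.129).

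**Figure D4:**
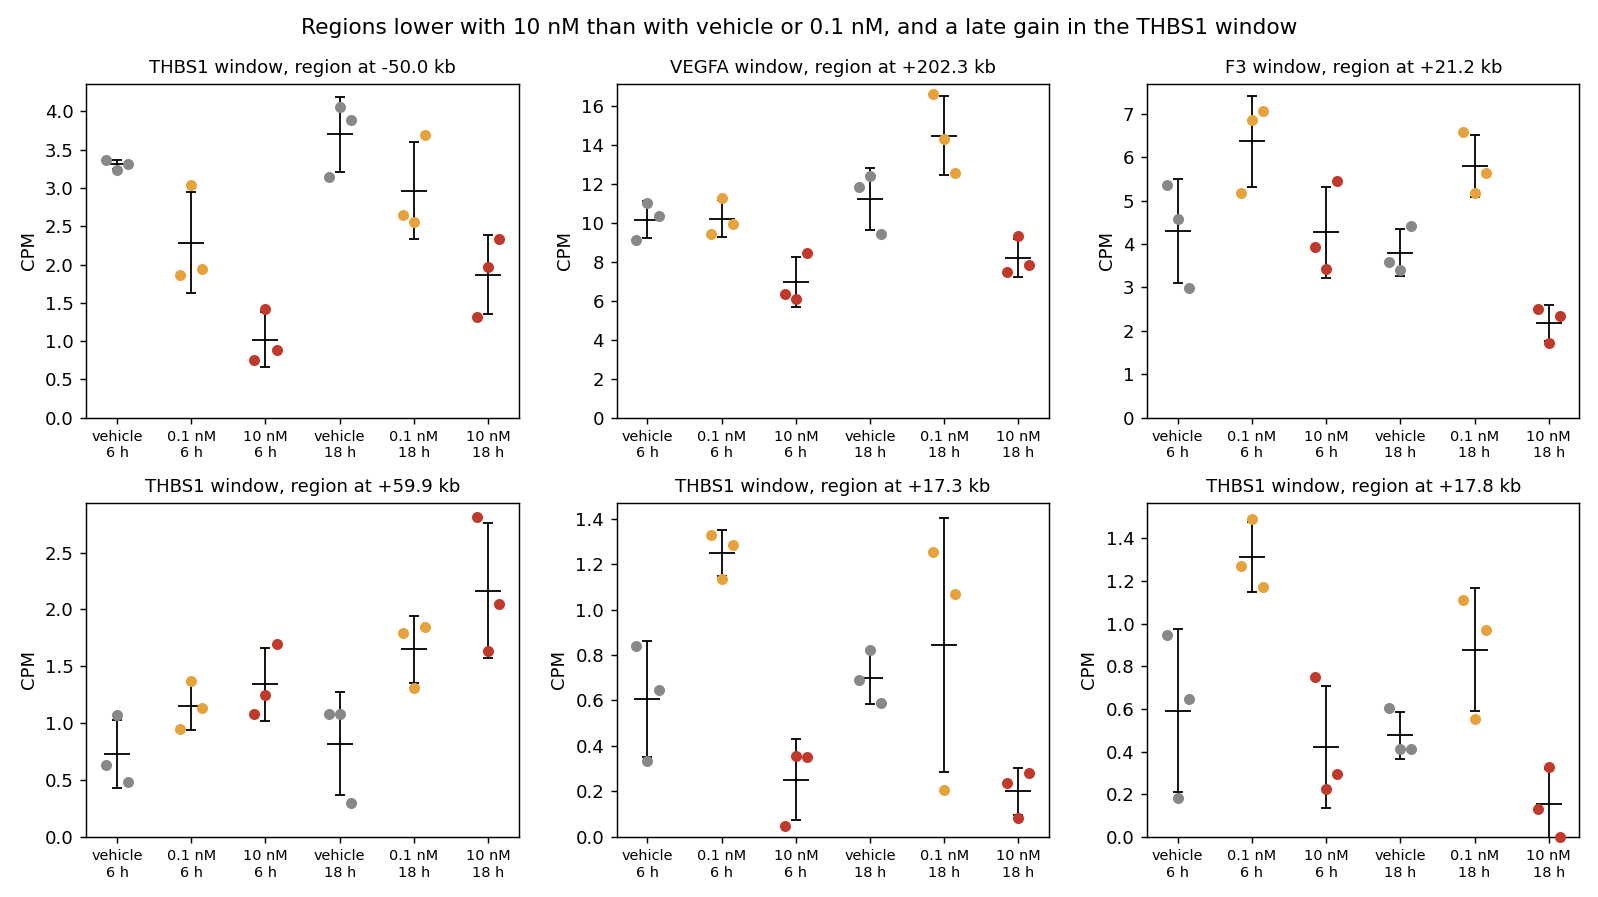
Accessibility in CPM of 5 regions that were lower with 10 nM than with vehicle or 0.1 nM, and of 1 late gain (THBS1 window, +59.9 kb), 1 point per library with the mean and SD of each group of 3. At +21.2 kb in the F3 window and +202.3 kb in the VEGFA window the 0.1 nM libraries lie above and the 10 nM libraries below vehicle at 18 h.

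With 0.1 nM, 0 of the 55 regions passed edgeR's test at 6 h, where 0.949% of all regions were called higher and 0.241% lower, and 0 at 18 h, where 1.74% and 0.698% were. At an unadjusted p under 0.05 there were 5 and 8 regions. The share of all regions at that threshold was not counted, so nothing is read from these numbers. DESeq2's Wald test called 1 (the F3 region at +9.15 kb) and 0. Over all regions it called 1695 higher and 671 lower at 6 h, and 3251 and 1204 at 18 h. The median log2 fold change of the 55 regions was 0.22 at 6 h and 0.23 at 18 h, against -0.04 and -0.01 over all regions, and 42 and 40 of the 55 values were above 0. Vehicle at 18 h against vehicle at 6 h, with no dose, gave 39 of 55 above 0 and a median of 0.12, so nothing is read from these counts. Among the larger values at 18 h, the F3 region at +54.2 kb stood at a log2 fold change of 1.13 (SE 0.36, edgeR adjusted p = 0.12) and the VEGFA region from 43692785 to 43693248 at 0.97 (edgeR adjusted p = 0.0958). The latter read 7.89, 9.16 and 6.07 CPM with vehicle and 20.1, 16.0 and 8.85 CPM with 0.1 nM. Replicate 3 overlapped vehicle, and without it the region was called (edgeR adjusted p = 0.0193).

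Set directly against each other at 6 h, the doses gave 8 regions above 0.1 nM with 10 nM and 5 below it (14.5% and 9.09%, beside 15.1% and 5.25% of all regions). All 8 were gains over vehicle too, 2 in the F3 window and 6 in the VEGFA window. Of the 5 lower, 3 lay in the THBS1 window, and this split by window was not tested. In all but the one at -50.0 kb the mean with 0.1 nM was at or above that of vehicle. Among them, the THBS1 region from 39897220 to 39897819 stood at 1.42 ± 0.290 CPM with vehicle, 3.22 ± 0.736 CPM with 0.1 nM and 1.52 ± 0.552 CPM with 10 nM, and the VEGFA region from 43757539 to 43758176 at 4.44 ± 0.806, 5.21 ± 1.08 and 3.09 ± 0.877 CPM. The calls from 39897220, 43757539 and 43940389 (VEGFA, +202.3 kb) were near the threshold (edgeR adjusted p = 0.044, 0.0488 and 0.0412). Each was kept in only 1 of the 6 fits without a library. Each was also lost under DESeq2's size factors and with no filter. Without any 1 of the 6 libraries, 2 regions were called lower. Over all regions these settings called 3760 to 6319 lower, against 6947 with every library. At 18 h 3 regions were higher with 10 nM and 3 lower (5.45% each, beside 6.67% and 4.22%). With the replicate number as a block, a pairing judged from the data at this time and not stated by the labels, 3 were higher and 5 lower. The block gave 11717 higher and 7933 lower over all regions, against 8822 and 5586 without it.

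**Figure D5:**
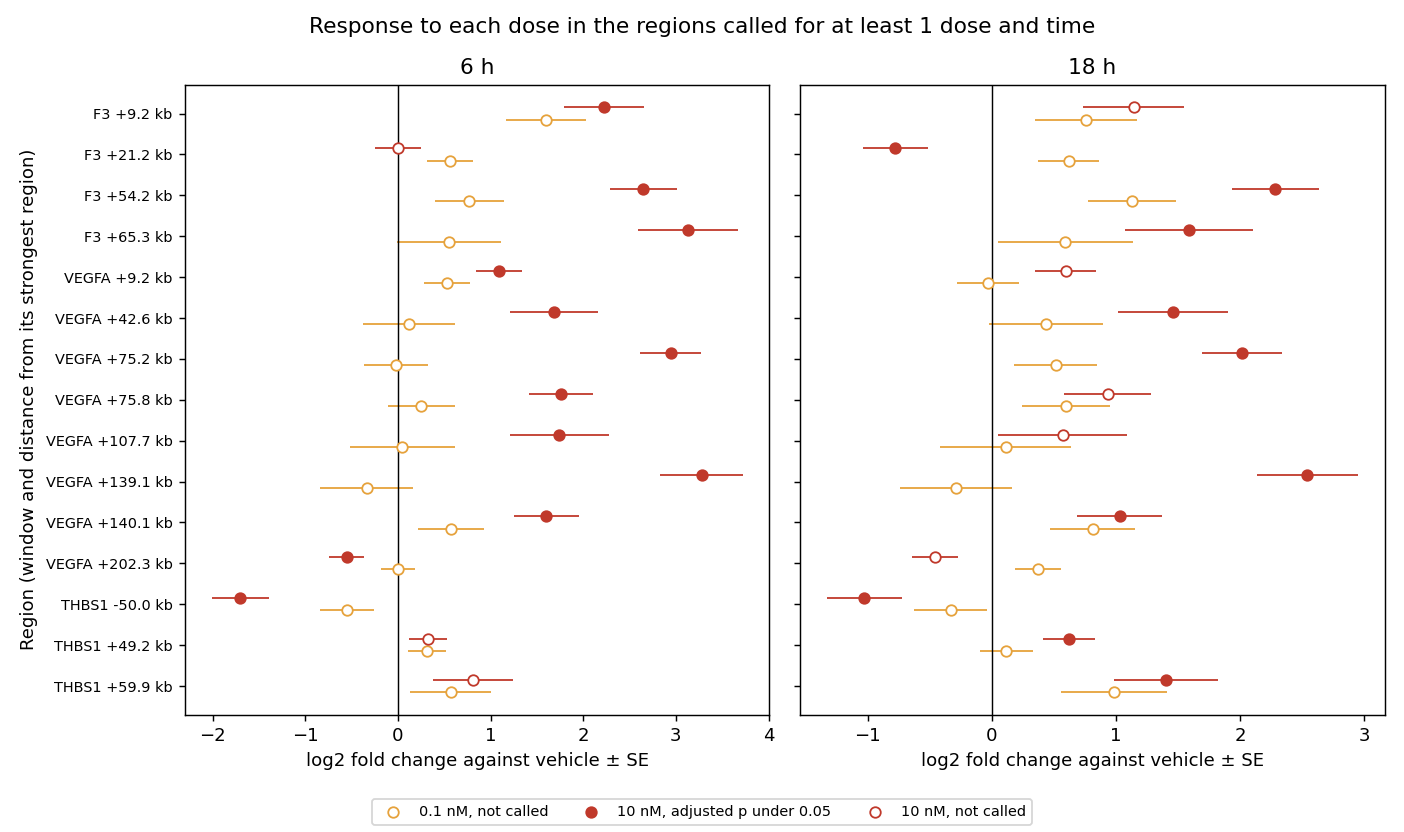
Log2 fold change against vehicle, with its standard error, of each dose in the 15 regions called for 10 nM at 6 h or 18 h; filled symbols passed an adjusted p under 0.05. The doses share their vehicle libraries. None of the 0.1 nM points was called; the highest of them at 6 h is F3 at +9.2 kb, at 1.60.

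Time alone gave no call in these windows. For vehicle at 18 h against vehicle at 6 h, edgeR called 0 of the 55 regions, 0 had an unadjusted p under 0.05, and DESeq2's Wald test called 0; 0% of all regions were called. For a change of response between the times, edgeR and DESeq2's Wald test each called 0 of the 55 regions with either dose. Over all regions 0.00151% and 0% were called by edgeR. There DESeq2's Wald test called 13 higher and 234 lower with 10 nM, and 0 with 0.1 nM. In the windows 3 regions with 10 nM and 1 with 0.1 nM had an unadjusted p under 0.05. The share of all regions at that threshold was not counted, so nothing is read from them. The change was largest in the THBS1 region from 39914948 to 39915403 (+42.0 kb), which read 1.16, 2.32 and 1.30 CPM with vehicle and 3.89, 3.07 and 3.16 CPM with 10 nM at 6 h, then 3.45, 2.01 and 2.00 CPM with vehicle and 1.76, 0.818 and 1.21 CPM with 10 nM at 18 h. The 10 nM libraries lay above vehicle at 6 h and below it at 18 h, but the change, a log2 value of -1.94, did not pass the test (edgeR adjusted p = 0.374). Gains called at 6 h but not at 18 h, 4 in number, are thus not shown to have faded.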

How the data were processed

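The authors' deposited table holds raw read counts per region for 18 libraries; reads were mapped with BWA to hg19 and regions called with MACS2, per the submitters' processing notes, with versions and settings not given in the sources used here. Regions with too few counts were left out with filterByExpr (minimum count 10, minimum total 15), which kept 132304 of 132604. Counts were fitted with edgeR 4.0.16 (R 4.3.3) as 6 group means with TMM scaling and its quasi-likelihood test, with Benjamini-Hochberg adjustment over all regions and a threshold of 0.05. SE is the log2 fold change divided by the square root of F. Members, lists and tests were chosen with earlier results of these data known. Named regions were, per window, the 3 strongest, up to 5 with the largest 10 nM change at 6 h among called regions, up to 2 each called for 0.1 nM or between doses, and any called for time. Genes of the same pathways were not placed on hg19 and are not reported. Alternatives were DESeq2 1.42.0 (Wald test), its size factors, no filter, only the groups compared, a replicate block, and each library left out. Alternatives chosen after seeing the data left out 2 libraries or used as a covariate the percentage of counts that the 5000 strongest regions took. Methods were tested on simulated data. Replicate pairs differed by more than sampling noise (chi-square per degree of freedom 3.28 to 27.8). The labels state no pairing. Deviations from the group mean correlated between libraries of the same number in the 18 h comparison of doses (0.60, 0.19 and 0.45). They also did between the vehicle groups (0.32, 0.12 and 0.45). For 10 nM against vehicle at 18 h the values were 0.36, 0.01 and 0.35. In each 18 h group, depth and the share of the strongest regions fell from replicate 1 to 3. A pairing cannot be told apart from that order.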

Additional observations from a re-analysis of the deposited data

How the results depend on the processing

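Counts of called regions moved by more than 1.5 times in these settings. Brackets give the counts over all regions in the same order. Regions lower with 10 nM at 6 h numbered 1 with DESeq2's size factors, 1 with no filter, 1 with only the groups compared and 4 with the covariate, against 2 (10142, 9677, 12833 and 15901, against 11143). Regions higher with 0.1 nM at 6 h numbered 1 with the replicate block, 1 with only the groups compared, 1 with the covariate and 1 with DESeq2, against 0 (1925, 837, 2885 and 1695, against 1256). Regions lower with 10 nM than with 0.1 nM at 6 h numbered 2 with DESeq2's size factors and 2 with no filter, against 5 (6004 and 6282, against 6947). With 10 nM at 18 h, regions higher numbered 4 with only the groups compared, against 8 (14677, against 16989). Regions lower there numbered 1 with DESeq2's size factors, 0 with only the groups compared, 4 without the 2 libraries and 1 with DESeq2, against 2 (9288, 6259, 16120 and 10279, against 10002). Regions higher with 0.1 nM at 18 h numbered 1 with the replicate block and 2 with the covariate, against 0 (3640 and 4788, against 2307). Between the doses at 18 h, regions higher numbered 1 with only the groups compared, against 3 (4505, against 8822). Regions lower there numbered 5 with the replicate block, 1 with only the groups compared, 7 with the covariate and 5 with DESeq2, against 3 (7933, 1677, 9373 and 6480, against 5586). The block moved no other count by that much. The cause was not tested.

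Leaving out 1 library at a time gave these counts, with those over all regions in brackets. With 10 nM at 6 h, 9 to 11 regions were higher (16345 to 22446) and 1 to 2 lower (6477 to 12289). At 18 h, 5 to 8 were higher (11250 to 16383) and 0 to 3 lower (6407 to 15261). Between the doses at 6 h, 5 to 12 were higher (14910 to 21122) and 2 to 2 lower (3760 to 6319). Between them at 18 h, 2 to 3 were higher (5030 to 9587) and 2 to 5 lower (2953 to 6007). With 0.1 nM at 18 h it gave 0 to 1 higher (957 to 2370). The log2 fold change of 10 nM at 6 h turned to 0.83 in the strongest F3 region and 0.38 in that of THBS1 with the covariate. Of 41 calls in the windows, 19 were kept in every setting and 21 without each library. There were 935 values of named or called regions under alternatives, including values not called in the main fit, which had no call to lose. Of these, 108 lost their call, 2 gained one and 2 reversed, and another 49 changed sign without a call. The 2 that reversed were the strongest F3 and THBS1 regions with the covariate, not called in the main fit (edgeR adjusted p = 0.984 and 0.592). Regions with fewer than about 20 counts in a library are limited by depth.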
